A study of Mus musculus with 32 samples.

Results

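The genes described here are those of the mouse major histocompatibility complex (MHC) and of antigen presentation. They were taken from the array by name: every probe whose gene name started with H2-, together with the probes of B2m, Cd74, Ciita, Tap1, Tap2, Tapbp, Psmb8, Psmb9, Psmb10 and Cd1d1. This gave 67 probes for 50 gene names out of 55681 probes for 34821 gene names. Of these probes, 57 lay on chromosome 17 between 34065963 and 37618439 in the mm9 build, where the mouse MHC is found.

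MHC class I molecules show peptides from inside the cell to CD8+ T cells. A class I molecule has a polymorphic heavy chain and the light chain B2m; its peptides are cut by the proteasome, moved into the endoplasmic reticulum by the TAP transporter and loaded there with the help of tapasin. Class II molecules are pairs of an alpha and a beta chain, are loaded with peptides from endosomes and are read by CD4+ T cells. In the liver, Kupffer cells and sinusoidal endothelial cells both carry class II molecules and take up antigens from the blood, while tumor cells often carry little or no class II and can carry less class I than normal cells.

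All mice were Balb/c males of 6 to 8 weeks. The TME groups came from livers of mice inoculated in the spleen with C26 colon carcinoma cells 14 days earlier (15 in the study's drawing), which are syngeneic with Balb/c, and the control groups from mice inoculated with PBS. Endothelial cells (EC control, ET TME), Ito cells (IC, IT) and Kupffer cells (KC, KT) were separated on Percoll gradients and by adherence and kept in culture for at most 24 h. Cells of the tumor liver metastases (TM) and CRC primary cells (TP), both from the mice with induced CRC, made up the other groups; the steps by which they were isolated are not given in the sources used here. There were 4 samples in each of the 8 groups, 24 of liver cells and 8 of tumors. The study checked the purity of the fractions by staining for a protein of each cell type, but bulk samples can hold other cells, and in them fewer cells of a type and less RNA per cell cannot be told apart.

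Each of 16 arrays carried 2 samples, one in Cy3 and one in Cy5. Control and TM samples were in Cy3 and TME and TP samples in Cy5 throughout, so that dye and TME, and dye and tumor site, cannot be told apart. Endothelial and Ito samples were on slide 1 and Kupffer and tumor samples on slide 2. TM was therefore compared with KC, and TP with KT, of the same dye and slide. Comparisons of control Kupffer with endothelial or Ito cells were within a dye and between slides, so that slide and cell type cannot be told apart there. Comparisons of Ito with endothelial cells were within a dye and a slide. Levels are log2 of the deposited quantile normalised intensity, and a difference of 1 is a doubling. A probe was called at an adjusted p under 0.05 (limma, Benjamini-Hochberg over all 55681 probes). As probes differ in brightness, levels were compared between groups within a probe and not between genes.

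Some samples stood apart or went against their labels. Over 8281 probes with a log2 level above 10, the TME minus control differences of array 4 ran opposite to the mean of the other arrays in Ito cells (r = -0.65) and in Kupffer cells (r = -0.57); the dyes and labels were kept, and the member calls lost or gained without number 4 are given beside each comparison. For the member Psmb9, for example, IC 4 stood at 15.26 among the TME Ito samples 1 to 3 (15.05 to 15.39), and IT 4 at 14.27 among the control Ito samples 1 to 3 (14.14 to 14.29). TME Ito sample 2 had the lowest Clec4f (11.06) and the highest Des (9.87) of the Ito samples. It also had their highest Krt18 (16.84, others 11.77 to 12.24) and summed B cell level (11.18, others 9.07 to 9.63). KC 3 had the lowest summed level of the macrophage markers among the Kupffer samples (16.18, others 17.31 to 18.96) and the highest of the B cell markers (10.43, others 7.73 to 8.696) and of the T and NK cell markers (10.94, others 8.95 to 9.68). TM 2 and TM 3 were the lowest tumor samples for the stellate markers (12.40 and 12.31, others 13.55 to 14.60) and the cycling cell markers (11.85 and 12.55, others 14.35 to 15.13). Of 9 stellate cell markers, 0 were called higher in IC than in EC, with Des at 5.62 ± 0.48 (SD, n = 4) against 7.75 ± 0.60 and Lrat at 4.16 ± 0.34 against 3.47 ± 0.31. Of the macrophage markers, 4 of 8 were called higher in IC than in EC and 0 of 8 called between KC and IC, and of the hepatocyte markers 5 of 6 were called higher in IC than in EC. All 9 endothelial markers were well above background in every liver cell sample, those of the Ito and Kupffer groups included. The tumors had 5 of 5 cycling cell markers called higher than Kupffer cells and 8 of 8 macrophage markers called lower; of 8 colon carcinoma markers 2 were called higher and 1 lower in TM, and 2 higher and 2 lower in TP. Among these, Krt20 lay between 9.42 and 12.75 in the tumor samples, and Epcam (2.45 to 4.35) was well above background in none of them.

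Array probes follow the reference strain, and several member probes resemble each other, which bears on what the H2 levels below can be taken for. Of the member probes, 10 pairs shared a run of at least 15 bases. The probe of H2-K1, a classical heavy chain, and the probe of H2-T23, the mouse counterpart of HLA-E, shared the 29 bases in capitals and matched at 39 of 54 aligned bases. A probe named H2-Q10 and a probe of H2-Q2 shared 19 bases and matched at 45 of 50. Full probes are shown 5′ to 3′ in the strand of the probe, as the array files give them.
H2-K1: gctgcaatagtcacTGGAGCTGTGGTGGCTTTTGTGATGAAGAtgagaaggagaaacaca
H2-T23: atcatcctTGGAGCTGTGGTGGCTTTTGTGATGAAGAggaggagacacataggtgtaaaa
H2-Q10, first probe: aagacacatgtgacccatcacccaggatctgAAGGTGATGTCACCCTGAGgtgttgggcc
H2-Q2: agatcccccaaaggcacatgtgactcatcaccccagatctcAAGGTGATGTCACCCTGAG

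The second H2-Q10 probe is the one with the higher variance and is used below for this gene, which encodes a secreted class I molecule made mainly by the liver. It shared a 22-base run with the probe of H2-T3, which was not well above background in any sample, and lies at chr17:35611449-35611508 on the plus strand of mm9. Bases 19 to 48 of the H2-Q10 probe and 20 to 49 of the H2-T3 probe are shown with the shared run in capitals.
H2-Q10, second probe: gagtTTGTGGAGGAAATAAATGGCAGatgg
H2-T3: agtaTTGTGGAGGAAATAAATGGCAGcatg
The 2 H2-Ab1 probes overlapped by 51 bases and differed at 1 of them (T51C, counted from the 5′ end of the probe used here). The stretches around this base, which is in capitals, are shown for the probe used here and for the other one.
H2-Ab1, probe used here: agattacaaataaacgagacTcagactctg
H2-Ab1, other probe: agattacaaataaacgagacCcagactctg

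Most of the members were expressed in the liver cells and fewer in the tumors. Well above background were 45 to 51 of the 67 member probes in each liver cell sample, 33 to 37 in each TM sample and 28 to 35 in each TP sample. Over all probes of the array the shares well above background were 42.4 to 56.1% in the liver cell samples, 43.4 to 49.3% in TM and 37.4 to 42.7% in TP. In all 32 samples, 27 member probes (40.3%) were well above background, against 30.7% of all probes. In all 24 liver cell samples and in none of the 8 tumor samples were 6 member probes (8.96%, against 1.24% of all probes), 3 of them among the 6 probes of class II chains. Silent throughout were 10 member probes; among them were those of H2-M1, H2-M10.4, H2-M10.6, H2-Q1 and H2-T3.

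**Figure D1:**
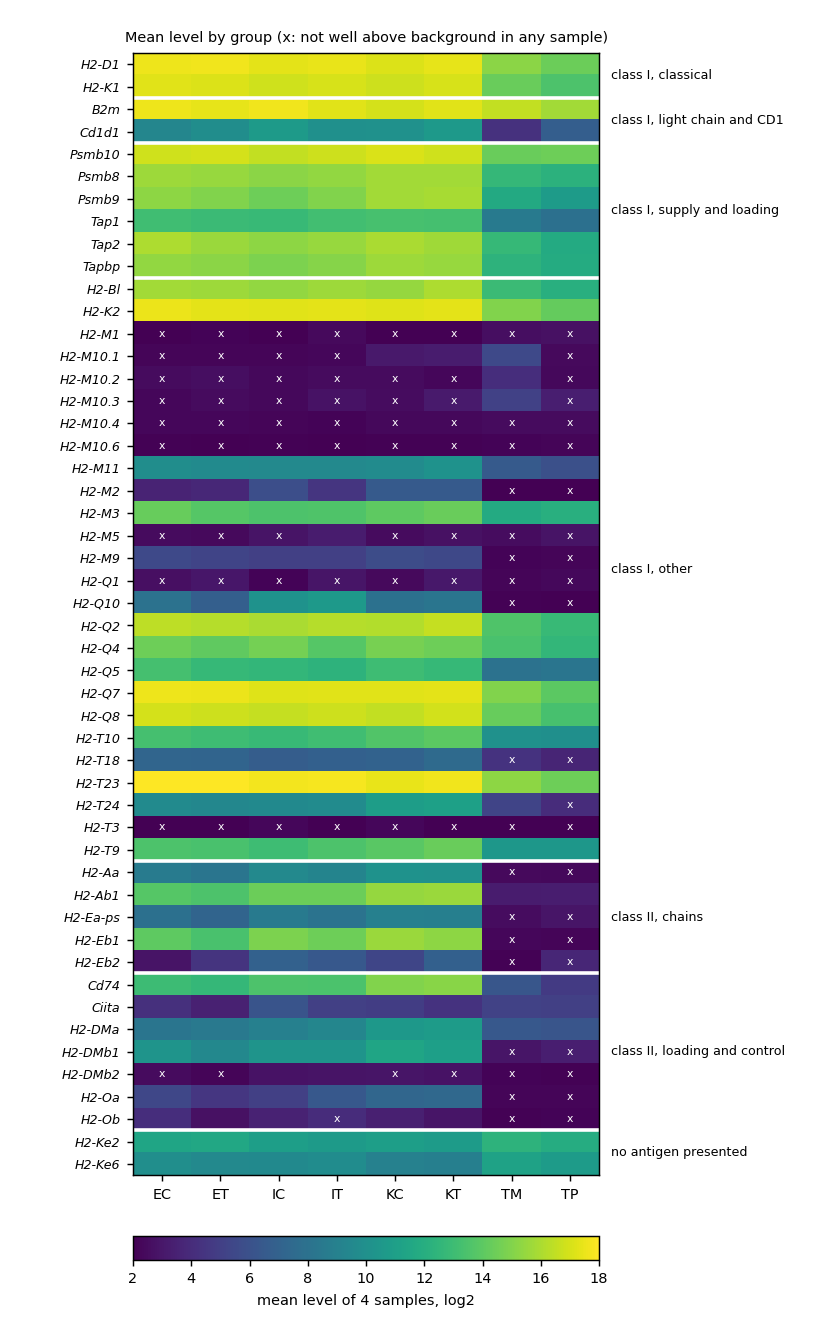
Mean log2 level of 4 samples for the probe of highest variance of each of the 50 member genes, in the 8 groups (EC and ET, control and TME endothelial; IC and IT, Ito; KC and KT, Kupffer; TM, liver metastases; TP, CRC primary), ordered by role; x marks a group in which no sample was well above background. Colours are to be read along a row, not between rows: the class II chains are crossed out in the tumor columns except H2-Ab1, and the classical class I chains dim there without being lost.

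The classical class I heavy chains were high in every liver cell sample and lower in every tumor sample. H2-K1 (probe at chr17:34133984-34134043, minus strand, mm9) stood at 17.26, 17.46, 17.16 and 17.25 in EC 1 to 4, and at 17.15, 16.83, 17.30 and 17.24 in ET. It stood at 16.82, 17.06, 16.67 and 16.95 in IC, and at 16.94, 17.08, 17.04 and 16.95 in IT. All EC samples lay above all Ito samples, and ET overlapped both. It stood at 17.18, 16.91, 15.76 and 17.24 in KC, where sample 3 was low, and at 17.05, 17.06, 17.06 and 17.01 in KT. The tumors were below all of these, at 13.58, 14.85, 14.53 and 14.32 in TM and 14.07, 13.97, 13.14 and 12.93 in TP. Against KC, H2-K1 was lower in TM by a difference of -2.45 (SE 0.27, adjusted p = 1.69e-08), or 5.48-fold. Against KT it was lower in TP by -3.52 (SE 0.27, adjusted p = 1.63e-11), or 11.5-fold.

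H2-D1, the other classical heavy chain of the array, gave the same picture (probe at chr17:35403886-35403945, plus strand, mm9). Its levels were 17.57, 17.81, 17.36 and 17.52 in EC, and 17.72, 17.39, 17.69 and 17.79 in ET. In IC they were 17.41, 17.39, 17.13 and 17.38, and in IT 17.36, 17.75, 17.42 and 17.35. Endothelial and Ito samples overlapped. In KC they were 17.53, 17.35, 16.28 and 17.58, with sample 3 low again, and in KT 17.48, 17.46, 17.46 and 17.32. In TM they fell to 14.44, 15.86, 15.66 and 15.002, and in TP to 14.88, 14.84, 14.06 and 13.96, again with no overlap with the liver cells. The differences were -1.94 (SE 0.27) for TM against KC and -3.00 (SE 0.27) for TP against KT, with adjusted p of 7.34e-07 and 2.9e-10.

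B2m, the light chain of class I molecules, overlapped between the metastases and the Kupffer cells. B2m stood at 17.78, 17.75, 16.99 and 17.74 in EC, and at 17.56, 17.26, 17.47 and 17.45 in ET. It stood at 17.27, 17.95, 17.27 and 18.08 in IC, and at 17.55, 16.58, 17.65 and 17.26 in IT. None of these groups stood clear of another. In KC it stood at 17.65, 17.29, 15.44 and 17.41, and in KT at 17.17, 17.17, 17.51 and 17.29. In TM it stood at 15.44, 17.08, 17.46 and 16.18, which overlapped KC, and in TP at 16.08, 15.76, 15.44 and 15.95, which lay below every KT sample. TM against KC was not called (-0.41, 95% interval -1.21 to 0.39, adjusted p = 0.466), and the sign of this difference turned without the samples numbered 1 (0.19) and with scaling to the 75th percentile (0.28). Without number 3, and so without the low KC 3, B2m was called lower in TM (-1.22, adjusted p = 0.00389). TP against KT was called, at -1.48 (SE 0.39, adjusted p = 0.00247), or 2.79-fold lower.

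The peptide supply of class I was lower in the tumors in all of its 7 probes, in both comparisons. Tap1 is a subunit of the peptide transporter, and its probe was printed in 10 spots per array with a median SD between spots of 0.0643. Its levels were 13.25, 13.04, 12.99 and 13.18 in EC, and 13.12, 12.33, 13.21 and 12.89 in ET. In IC they were 12.91, 12.81, 12.71 and 12.81, and in IT 12.77, 14.22, 12.89 and 12.85, where sample 2 was high. In KC they were 13.41, 13.22, 13.53 and 13.33, and in KT 13.38, 13.28, 13.34 and 13.24. The tumors were far below, at 8.48, 9.07, 8.06 and 8.75 in TM and 8.28, 8.63, 7.93 and 6.91 in TP. The difference was -4.78 (SE 0.29, adjusted p = 2.25e-13), or 27.5-fold, for TM against KC. For TP against KT it was -5.37 (SE 0.29, adjusted p = 2.06e-14), or 41.4-fold.

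Psmb8 and Psmb9 encode subunits of the immunoproteasome, which take the place of constitutive subunits under interferon. Psmb8 stood at 15.88, 15.43, 15.46 and 15.93 in EC, at 15.66, 14.97, 15.62 and 15.79 in ET, at 15.16, 15.16, 15.02 and 15.62 in IC and at 15.44, 15.67, 15.36 and 15.18 in IT. It stood at 15.86, 15.63, 15.81 and 15.90 in KC, at 15.82, 15.81, 15.79 and 15.76 in KT, at 12.85, 12.52, 11.99 and 13.21 in TM and at 13.02, 12.65, 11.997 and 11.44 in TP. No tumor sample reached the lowest liver sample, 14.97, and the differences were -3.16 (SE 0.26, adjusted p = 6.42e-11) for TM against KC and -3.52 (SE 0.26, adjusted p = 6.55e-12) for TP against KT. Psmb9 stood at 15.61, 15.002, 14.96 and 15.61 in EC, at 15.16, 14.61, 15.10 and 15.09 in ET, at 14.26, 14.29, 14.14 and 15.26 in IC and at 15.15, 15.39, 15.05 and 14.27 in IT. It stood at 15.68, 15.71, 15.63 and 16.07 in KC, at 15.94, 16.04, 16.02 and 15.71 in KT, at 11.69, 11.79, 11.61 and 11.87 in TM and at 11.79, 10.91, 10.39 and 10.04 in TP. Kupffer samples were the highest and overlapped no Ito sample. The differences of Psmb9 were -4.03 (SE 0.29, adjusted p = 4.1e-12) for TM against KC and -5.14 (SE 0.29, adjusted p = 3.08e-14) for TP against KT. Of the other members of this role, Tap2, Tapbp (tapasin) and Psmb10 were 9.40-fold, 9.96-fold and 6.67-fold lower in TM than in KC, and 15.4-fold, 12.7-fold and 5.05-fold lower in TP than in KT.

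The class II chain genes H2-Eb1, H2-Aa, H2-Ab1 and H2-Ea-ps were well above background in all 24 liver cell samples and, apart from H2-Ab1, in no tumor sample. H2-Eb2 was well above background in 1 of 4 EC samples (2.33, 1.90, 4.69 and 2.43), in 19 of the 24 liver cell samples and in no tumor sample. H2-Eb1, a beta chain, stood at 14.49, 13.60, 13.61 and 14.49 in EC, and at 13.84, 12.92, 13.28 and 13.70 in ET. It stood at 14.81, 14.79, 14.90 and 14.81 in IC, and at 14.67, 14.09, 14.60 and 14.60 in IT. All IC samples were above all EC samples, and all IT samples above all ET samples. In KC it stood at 16.10, 15.96, 15.07 and 15.26, and in KT at 15.19, 15.13, 14.99 and 15.87. In TM it was not well above background in any sample (2.30, 2.30, 2.28 and 2.22), nor in TP (2.24, 2.21, 2.28 and 2.18). Kupffer cells exceeded TM at least 534-fold (adjusted p = 2.38e-24) and TP at least 423-fold (adjusted p = 3.15e-24). Where no sample of a group was well above background, such a bound is given in place of a fold; it was computed from scanner signals after loess and Aquantile normalisation and is open to dye bias.

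H2-Aa, an alpha chain, stood at 8.95, 8.27, 8.27 and 9.05 in EC, at 8.66, 7.41, 8.17 and 8.66 in ET, at 9.44, 9.40, 9.51 and 9.81 in IC and at 9.64, 8.39, 9.39 and 9.42 in IT. It stood at 10.71, 10.29, 9.50 and 10.04 in KC, at 9.92, 9.95, 10.02 and 10.52 in KT, and was not well above background in TM (2.26 to 2.46) or TP (2.31 to 2.38). KC exceeded TM at least 13.7-fold (adjusted p = 3.28e-18), and KT exceeded TP at least 12.7-fold (adjusted p = 3.26e-18). H2-Ab1, its beta chain partner, was the exception to full silence in the tumors. It stood at 14.17, 13.35, 13.42 and 14.12 in EC, at 13.93, 12.92, 13.54 and 13.75 in ET, at 14.32, 14.35, 14.34 and 14.53 in IC and at 14.61, 14.22, 14.61 and 14.22 in IT. It stood at 15.65, 15.70, 15.06 and 15.43 in KC, at 15.56, 15.58, 15.39 and 15.73 in KT, at 3.19, 1.98, 1.93 and 5.78 in TM and at 5.07, 1.95, 3.86 and 2.33 in TP. Only TM 4 and TP 1 were well above background, and both were also the tumor samples with the highest level of the other H2-Ab1 probe, 5.24 and 5.44. The fitted difference of H2-Ab1 was -12.24 (SE 0.59, adjusted p = 1.78e-15) for TM against KC and -12.26 (SE 0.59, adjusted p = 1.62e-15) for TP against KT. With 3 of 4 samples of each tumor group below the detection limit, these sizes rest in part on the floor of the scale.

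The invariant chain and the loading factors followed the chains in part. Cd74, the invariant chain that guides class II molecules to the endosome, stood at 13.25, 12.68, 12.65 and 13.29 in EC, at 12.86, 11.97, 12.72 and 13.04 in ET, at 13.36, 13.59, 13.40 and 13.83 in IC and at 13.47, 13.37, 13.61 and 13.54 in IT. It stood at 15.08, 14.83, 14.44 and 15.42 in KC and at 15.18, 15.21, 15.08 and 15.05 in KT, above every endothelial and Ito sample. Unlike H2-Eb1 and H2-Aa, Cd74 was well above background in all 4 TM samples (7.89, 6.79, 6.11 and 4.39) and in 2 of 4 TP samples (7.54, 5.06, 3.99 and 2.25). It was 400-fold lower in TM than in KC (-8.64, SE 0.67, adjusted p = 2.21e-11). In TP it was lower than in KT as well (adjusted p = 4.75e-13), and the fitted -10.42 (SE 0.67) rests in part on the 2 samples below the detection limit.

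H2-DMa, a chain of the peptide exchanger H2-DM, stood at 8.16, 8.25, 8.05 and 8.36 in EC, at 8.50, 8.92, 8.12 and 8.23 in ET, at 8.76, 8.90, 8.71 and 9.54 in IC and at 9.48, 9.29, 9.54 and 9.05 in IT. It stood at 10.77, 10.48, 10.01 and 10.73 in KC and at 10.77, 10.74, 10.72 and 10.79 in KT, above all other liver samples. It remained detectable in all TM samples (6.42, 6.48, 6.25 and 6.58) and in 3 of 4 TP samples (6.62, 6.47, 6.14 and 5.66), 16.8-fold below KC and 23.1-fold below KT (adjusted p = 4.77e-15 and 4.93e-16). Its partner H2-DMb1 was not well above background in any tumor sample; KC exceeded TM at least 30.2-fold and KT exceeded TP at least 21.8-fold. H2-Oa, a chain of the H2-DM inhibitor H2-O, was also below background in all tumor samples, and KC exceeded TM at least 2.80-fold and KT exceeded TP at least 2.65-fold. Ciita, the transactivator of class II genes, had no such pattern, and its only probe is of low sequence complexity, which limits what its values can be taken for. It stood at 4.10, 4.21, 4.49 and 4.07 in EC, at 3.84, 4.05, 3.19 and 2.68 in ET, at 5.70, 5.96, 7.46 and 5.48 in IC and at 4.61, 4.74, 5.33 and 5.48 in IT. The probe stood at 5.22, 5.42, 4.51 and 4.57 in KC, at 4.64, 3.17, 4.61 and 4.91 in KT, at 4.53, 7.17, 4.28 and 4.67 in TM and at 3.70, 6.83, 4.17 and 5.40 in TP. It was well above background in 1 to 4 samples of each group, and tumors and Kupffer cells overlapped. TM against KC was 0.23 (95% interval -0.99 to 1.45, adjusted p = 0.826). TP against KT was 0.69 (-0.53 to 1.91, adjusted p = 0.39), and the sign of each difference turned without number 2.

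**Figure D2:**
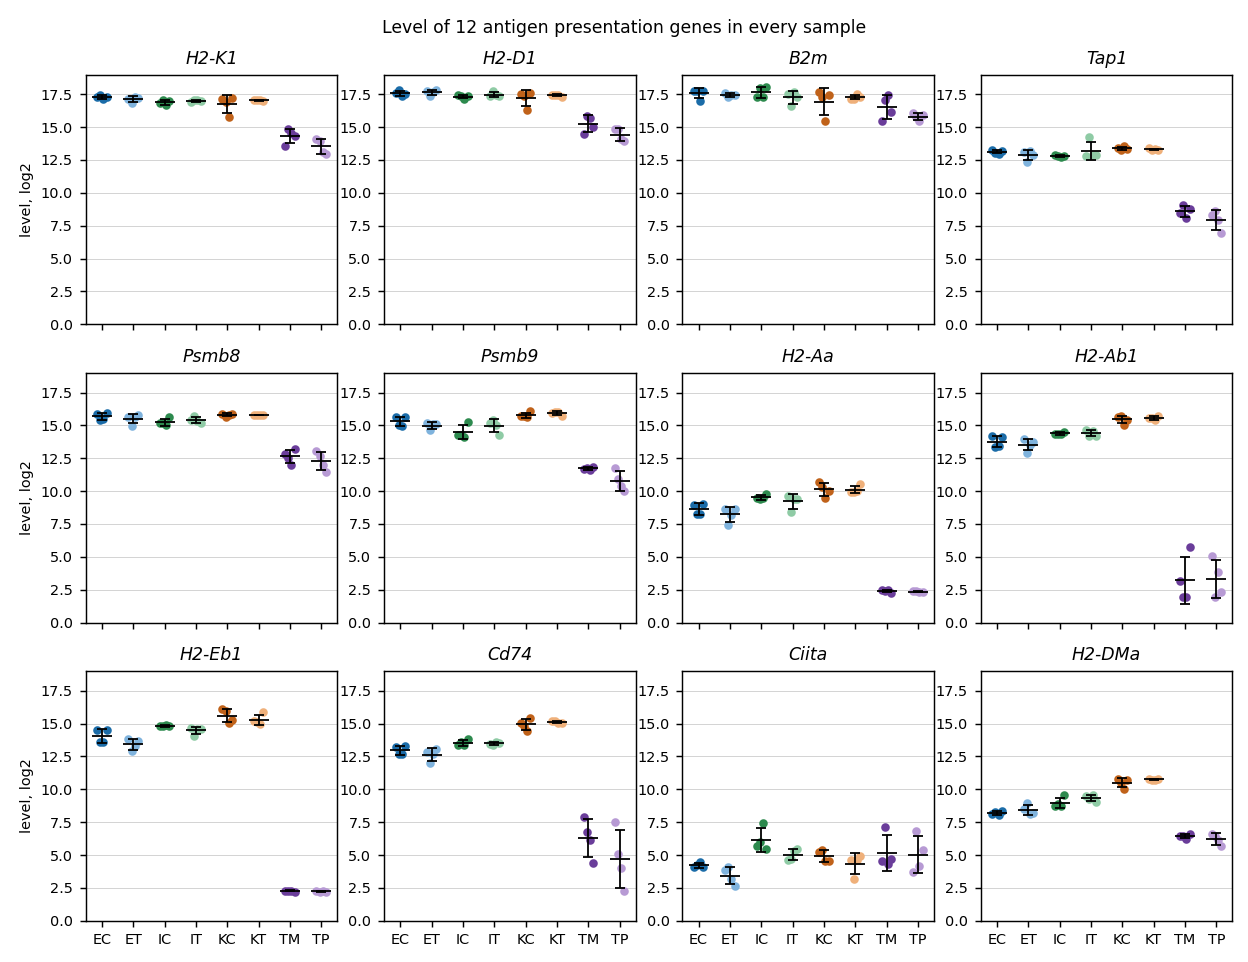
Log2 level of 12 member genes in each of the 32 samples (points, 4 per group in the order 1 to 4) with the mean and SD of each group (black bars). All tumor samples (TM, TP) lie below all liver cell samples in the panels other than B2m and Ciita.

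Counted over all members, TM had 44 probes called lower and 5 called higher than KC, and TP had 45 lower and 4 higher than KT. Without number 4 the counts were 45 lower and 6 higher for TM, where H2-M10.1 and 1 probe of H2-Ob (-1.75, adjusted p = 0.0224) were gained, and 45 lower and 3 higher for TP, where H2-M5 was lost (0.16, adjusted p = 0.316). The shares of all probes without number 4 are not given here, and those that follow are from the fit of all samples. Over all probes of the array, 16.2% were called lower and 23.3% higher in TM against KC, and 17.8% lower and 25.7% higher in TP against KT. The median difference over the 67 member probes was -2.53 for TM against KC, where that over all probes was 0.08, and -3.30 for TP against KT, where that over all probes was 0.10. All 3 probes of the classical heavy chains, all 7 of peptide supply and all 6 of the class II chains were called lower in both comparisons. Of these, H2-Eb2 was not called in TM without number 1 (-2.67, adjusted p = 0.0797). Of the 36 probes of other class I chains, 22 were called lower in TM, and of the 10 of class II loading and control, 4. The median over the class II chains was -9.87 and -9.88 in the 2 comparisons, but includes probes with only a bound in the tumors. Macrophage markers were lower in the tumors as well, 8 of 8 in each comparison, as were dendritic cell markers, 4 of 7 in TM and 3 of 7 in TP, B cell markers, 5 of 6 in TM and 4 of 6 in TP, endothelial markers, 9 of 9 in each, and hepatocyte markers, 5 of 6 in each; their part in the class II result was not tested. Set against endothelial and Ito controls, without a test, H2-Eb1 in TM was at least 182-fold below EC and at least 324-fold below IC.

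Among the other class I chains, H2-T23, H2-M3 and H2-Q5 were well above background in all 32 samples and were called lower in both tumors. H2-T23, whose product is a ligand of inhibitory receptors of natural killer cells, was 4.58-fold lower in TM than in KC and 9.18-fold lower in TP than in KT (adjusted p = 1.24e-07 and 1.12e-10). H2-M3, which presents formylated peptides of bacteria and mitochondria, was 4.74-fold and 4.67-fold lower (adjusted p = 3.63e-11 and 3.72e-11). H2-Q5 differed by -4.98 and -4.49. H2-T24 differed by -5.66 in TM, where 3 of 4 samples were well above background, so that this size rests in part on the floor of the scale. In TP this probe of H2-T24 was below background, and KT exceeded it at least 22.6-fold. The other H2-T24 probe was well above background in all TM samples and in 3 of 4 TP samples. Its mean was 5.55 in TP and 12.07 in KT. Cd1d1, which presents lipids to natural killer T cells, differed by -5.82 (SE 0.77, adjusted p = 4.05e-07) in TM against KC. By this probe it was well above background in 2 of 4 TM samples (6.06, 1.90, 1.83 and 7.36) and in all TP samples (6.90, 7.38, 6.14 and 6.76), so that the size in TM rests in part on the floor of the scale. The other Cd1d1 probe was well above background in 1 of 4 TM samples and in no TP sample.

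**Figure D3:**
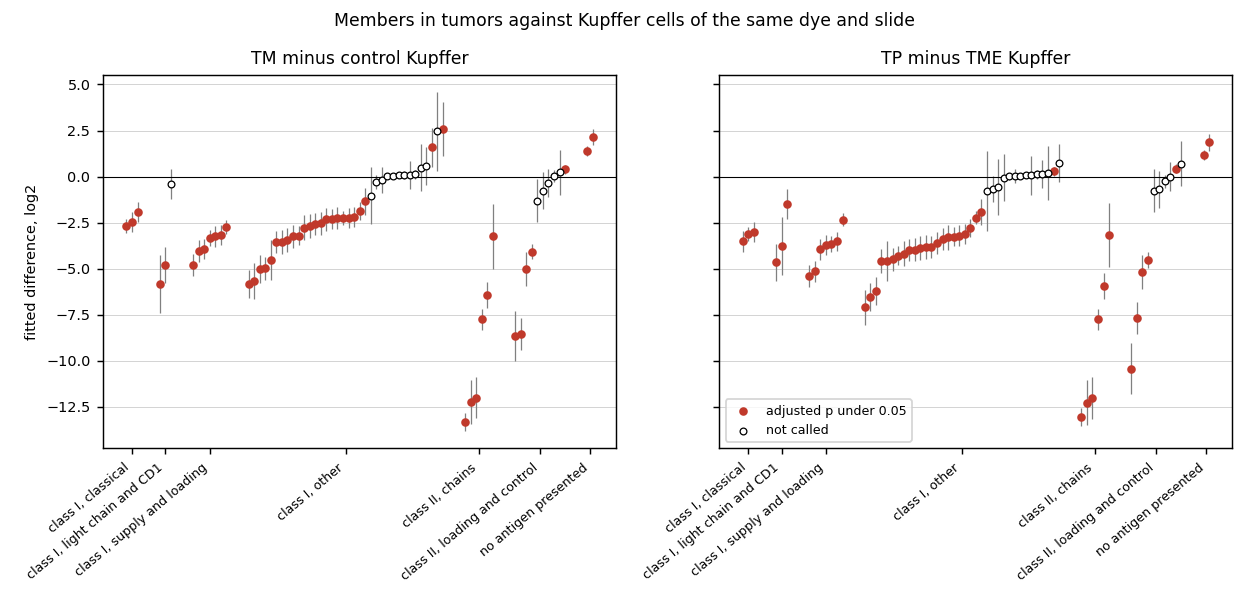
Fitted log2 difference of each of the 67 member probes, with its 95% interval, for liver metastases (TM) minus control Kupffer cells (left) and CRC primary (TP) minus TME Kupffer cells (right), grouped by role and ordered by size within a role; filled points are called at an adjusted p under 0.05. Probes of class II chains reach -13.33 and -13.07 in the fit, where the tumor samples were not well above background and only the bounds of at least 534-fold and 423-fold hold, and the genes that present no antigen lie above 0.

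A few members were higher in the tumors than in Kupffer cells. H2-Ke2 and H2-Ke6 have H2 names for their place in the MHC and present no antigen; H2-Ke2 is listed as Pfdn6, a subunit of the prefoldin chaperone, in RefSeq. H2-Ke6 stood between 8.93 and 9.16 in KC and between 8.87 and 9.02 in KT. It stood at 10.71, 11.49, 11.83 and 10.76 in TM and at 10.82, 10.83, 10.74 and 10.77 in TP. The tumors were thus clear of the Kupffer cells, by 2.16 (SE 0.22, adjusted p = 4.25e-09) and 1.85 (SE 0.22, adjusted p = 5.6e-08), and among the other liver samples only IT 2 (10.702) came near them. H2-Ke2 was higher than in Kupffer cells by 1.40 (SE 0.14, adjusted p = 2.02e-09) and 1.17 (SE 0.14, adjusted p = 4.14e-08). Its TP samples (11.54 to 12.45) were not clear of the ET samples (11.47 to 11.80). The calls of H2-M10.2 and H2-M10.3, class I genes known from vomeronasal neurons, rested on 2 TM samples: TM 2 and TM 3 stood at 6.52 and 5.08 for H2-M10.2 and at 7.997 and 6.90 for H2-M10.3, while TM 1 and TM 4 were not above background. Both calls were lost without number 2 (adjusted p = 0.246 and 0.0957) and without number 3 (0.175 and 0.065). TM 2 and TM 3 were also the tumor samples with the lowest marker sums of stellate and cycling cells, and the part of this was not tested. H2-M10.1 had the same 2 samples high, at 9.57 and 8.20, and was not called (adjusted p = 0.0673), but was called without number 4 (3.245, adjusted p = 0.0449). The 1 probe of H2-Ob called higher in both comparisons and the 1 of H2-M5 called higher in TP were not well above background in any sample.

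The genes that work beside the members were taken from a list of 38, all on the array. In TM, 25 were called lower and 4 higher than in KC; in TP, 24 were lower and 4 higher than in KT. The shares of all probes were the 16.2% lower and 23.3% higher in TM and the 17.8% and 25.7% in TP given above. Among those called lower in TM were the costimulatory genes Cd40 and Cd86, which were not well above background in any tumor sample, and March1, a ubiquitin ligase for class II and Cd86, which was in 1 of 4 TM samples. Ctss, a protease that degrades the invariant chain, and Psme2, a proteasome activator, were well above background in all TM samples and lower by -7.09 and -4.64. Nlrc5, the transactivator of class I genes, was lower by -3.33 in TM and -4.10 in TP (adjusted p = 1.1e-09 and 1.8e-11), and Irf1, an interferon response factor, by -3.86 and -3.63. The constitutive proteasome subunits Psmb5 and Psmb7 were higher, by 0.94 and 0.56 in TM and 1.12 and 0.53 in TP, whereas Psmb6 was lower, by -0.98 and -0.45. Of the chaperones of the endoplasmic reticulum, Calr, Canx and Pdia3 were not called in either comparison.

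Promoter sequences were looked at for members that moved together. RefSeq (GRCm38.p6) gave the 250 bases before the start for 34 of the 50 member genes; H2-Ab1 was not among them. Class II promoters are known for a Y box, and the letters CTGATTGG were searched on both strands. They were found in all 3 class II chain genes with a sequence (H2-Aa, H2-Eb1 and H2-Eb2), in 16 of the 34 member genes and in 3.83% of 32851 promoters; the shorter ATTGG, which lies within it, was in 29 of the 34 and in 33.8% of promoters. The 16 genes included H2-D1, Tap1 and Psmb9 as well as the silent H2-M1, H2-M10.4 and H2-M10.6. Shown are 3 class II promoters from 140 to 37 bases before the start with CTGATTGG in capitals, and TGACGTCA, found in 1.55% of promoters and among members only in H2-Aa, also in capitals.
H2-Aa, chr17:34287860-34287963, minus strand: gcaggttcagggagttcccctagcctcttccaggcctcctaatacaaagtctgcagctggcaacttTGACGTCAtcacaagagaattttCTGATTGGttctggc
H2-Eb1, chr17:34305727-34305830, plus strand: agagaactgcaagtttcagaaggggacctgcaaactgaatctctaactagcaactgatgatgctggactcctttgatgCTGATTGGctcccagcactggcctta
H2-Eb2, chr17:34325535-34325638, plus strand: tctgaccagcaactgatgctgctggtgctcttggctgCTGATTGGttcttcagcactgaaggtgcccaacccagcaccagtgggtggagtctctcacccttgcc

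The 2 classical heavy chains shared another string. The letters of a kappa B site, in capitals in the 2 lines shown here, were found among the members in H2-K1 and H2-D1 alone and in 10 of the 32851 promoters (0.0304%). For each promoter 100 bases around them are shown. A match of letters is a description and was not tested for binding.
H2-K1, chr17:34000399-34000498, minus strand: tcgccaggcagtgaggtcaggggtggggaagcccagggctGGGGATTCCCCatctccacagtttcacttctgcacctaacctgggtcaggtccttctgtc
H2-D1, chr17:35262883-35262982, plus strand: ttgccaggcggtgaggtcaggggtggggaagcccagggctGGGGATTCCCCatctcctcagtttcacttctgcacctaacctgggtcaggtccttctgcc

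Among control liver cells, the group means of H2-Aa, H2-Ab1, H2-Eb1, Cd74 and H2-DMa were highest in Kupffer cells. Those of H2-Eb2 (6.98 in IC and 5.36 in KC) and Ciita (6.15 and 4.93) were highest in Ito cells, and that of the H2-Ob probe of highest variance in endothelial cells (4.07 in EC and 3.40 in KC). In KC against EC, 11 member probes were called higher and 2 lower, where over all probes 8.95% were higher and 12.1% lower. All 6 probes of class II chains were among the 11, with H2-Eb1 at 1.55 (SE 0.24, adjusted p = 2.42e-05), H2-Aa at 1.497 (SE 0.27, adjusted p = 0.000187) and H2-Ab1 at 1.69 (SE 0.59, adjusted p = 0.0394). H2-DMa had the lowest adjusted p, with a difference of 2.29 (SE 0.20, adjusted p = 9.2e-09), or 4.91-fold, and Cd74 was 3.93-fold higher (adjusted p = 0.0344). Without the samples numbered 4, the calls of H2-Ea-ps, H2-Eb2 and the other H2-Ab1 probe were lost (adjusted p = 0.0528, 0.18 and 0.0625), and H2-DMb1 was called (1.56, adjusted p = 0.0331). H2-Ea-ps and the other H2-Ab1 probe were also not called without number 1, 2 or 3, nor H2-Eb2 without number 1 or 2. The call of Cd74 was lost without number 2 or 3 at differences of 1.92 and 2.04 (adjusted p = 0.176 and 0.158), and that of H2-Ab1 without number 1, 2 or 3 at 1.76, 1.47 and 1.71 (0.108, 0.167 and 0.146), whereas H2-Eb1, H2-Aa and H2-DMa were called whichever number was left out. Macrophage markers moved with these genes: 5 of 8 were called higher in KC, with Cd68 at 2.75 and Clec4f at 2.71. Of 7 dendritic cell markers 3 were called higher, with Itgax at 2.24, and 2 lower. Of 9 endothelial markers 1 was called higher in KC and 4 lower. The part of these lists in the class II difference was not tested. The classical heavy chains and B2m were not called between these groups (H2-K1 -0.52, adjusted p = 0.203; B2m -0.62, adjusted p = 0.312).

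Ito cells lay between Kupffer and endothelial cells for H2-Aa, H2-Eb1, Cd74 and H2-DMa by group means. In IC against EC, 7 member probes were called higher (4.17% of all probes) and 2 lower (5.72%). The 7 were H2-Aa (0.90, adjusted p = 0.0328), H2-Eb1 (0.78, adjusted p = 0.0352), H2-Eb2, H2-DMa (0.77, adjusted p = 0.0141), Ciita (1.93, adjusted p = 0.0365, from the probe of low sequence complexity), H2-M2 and H2-Q10. The H2-M2 call was that of its dimmer probe (mean 3.57 in EC and 5.84 in IC). The brighter H2-M2 probe, well above background in all samples, went the other way (15.52 and 14.96) and was not called. Without number 4, Ciita, H2-Aa and H2-M2 were no longer called (adjusted p = 0.0948, 0.0795 and 0.0554), nor was H2-M3 on the lower side (0.055), and H2-T10 and both probes of Psmb9 were called lower in IC (-0.69, -0.96 and -0.92). Without number 1, 2 of the 9 calls were left, those of H2-Eb2 and H2-Q10. For the comparisons between cell types, shares of all probes in the fits that leave out a number are not given here. A loss of member calls in them cannot be told from one over the whole array. H2-Aa was not called whichever number was left out, at differences of 0.79 to 1.04 (adjusted p = 0.0629 to 0.251). H2-Eb1 was not called without number 1, 2 or 3, at 0.93, 0.65 and 0.61 (adjusted p = 0.0636, 0.194 and 0.307), nor H2-DMa, at 0.83, 0.81 and 0.81 (0.0743, 0.0667 and 0.0535). In the TME, IT against ET had 5 called higher (3.48% of all probes) and 1 lower (4.78%), with H2-Eb1 at 1.05 (adjusted p = 0.00509), H2-DMa at 0.90 (adjusted p = 0.00538), H2-Oa at 1.86 (adjusted p = 0.00828) and H2-Aa at 0.99 (adjusted p = 0.0221; 0.0632 without number 4). Without number 3 all 4 of these calls were lost, at differences of 0.97, 0.72, 1.39 and 0.91 (0.0599, 0.0912, 0.126 and 0.151) and 2 of 6 calls were left, and without number 1 H2-DMa, H2-Oa and H2-Aa were not called (0.0789, 0.0963 and 0.109). Macrophage markers were higher in IC than in EC as well (Cd68 by 2.09 and Clec4f by 1.99, both called), while 0 of 8 were called in IT against ET. Of the B cell markers, 3 of 6 were called higher in IT than in ET (among them Cd79b by 2.49 and Ms4a1 by 2.205) and 0 of 6 in IC than in EC. The part of either list was not tested. Of the 38 genes of the pathway list described above, 3 were called higher and 4 lower in IC than in EC, and 1 higher and 0 lower in IT than in ET. Ifi30, the thiol reductase that opens disulfide bonds of class II antigens, was higher in Ito cells in both comparisons, by 2.03 and 1.74 (adjusted p = 1.27e-06 and 1.16e-05). In KC against IC, 8 member probes were higher (7.24% of all probes) and 1 lower (7.57%), among them H2-DMa (1.52, adjusted p = 1.03e-05), H2-Oa (2.20, adjusted p = 0.00101), H2-Eb1 (0.77, adjusted p = 0.0282), Psmb9 (1.28, adjusted p = 0.00245), Psmb10 (0.59, adjusted p = 0.0244) and Tapbp (0.84, adjusted p = 0.00701; 0.0558 without number 4). Without number 4, H2-T9 (1.03, adjusted p = 0.00245) and H2-DMb1 (1.55, adjusted p = 0.0437) were called higher as well. Without number 1, the calls of H2-Oa, H2-Eb1, Psmb10 and Tapbp were lost (adjusted p = 0.0528, 0.232, 0.146 and 0.0641), while H2-DMa and Psmb9 were called whichever number was left out. Psmb10 was also not called without number 2 or 3 (0.0637 and 0.153), nor H2-Eb1 without number 2 (0.142), nor Tapbp without number 3 (0.0608). Between KC and IC none of the 8 macrophage markers was called, while of 7 dendritic cell markers Itgax and Ccr7 were called higher in KC (2.82 and 0.999) and Zbtb46 lower (-1.26). Xcr1 was also called higher, but was well above background in 1 of 4 KC samples and in no IC sample.

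By group means, the order was KT, KC, IC, IT, EC, ET for Cd74 and KC, KT, IC, IT, EC, ET for H2-Eb1 and H2-Aa, with the tumors last. Neighbouring groups whose ranges of samples did not overlap were, for Cd74, KC and IC, IT and EC, and ET and TM. For H2-Eb1 they were KT and IC, IC and IT, and ET and TM, and for H2-Aa the single step within the liver cells was that of KT to IC. The classical heavy chains, B2m, Tap1 and Psmb8 had no such step among the liver cells.

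H2-Q10 followed another order. It stood at 8.05, 7.91, 7.87 and 8.19 in EC, and at 6.72, 7.27, 6.47 and 6.79 in ET. In IC it stood at 10.12, 10.08, 10.02 and 10.38, and in IT at 10.44, 11.73, 10.21 and 9.90. All Ito samples were above all other samples. In KC it stood at 8.75, 8.72, 6.37 and 7.96, in KT at 8.03, 8.06, 8.04 and 8.85, and by this second probe it was below background in all tumor samples. It was 4.42-fold higher in IC than in EC (adjusted p = 0.000214), 13.5-fold higher in IT than in ET (adjusted p = 1.28e-07) and 4.59-fold lower in KC than in IC (adjusted p = 0.000117). Without number 4 these differences were 2.13, 3.97 and -2.13 on the log2 scale, all called (adjusted p = 0.0051, 3.25e-05 and 0.00402). Hepatocyte markers moved with it: Alb was higher by 3.02 in IC than in EC and by 3.67 in IT than in ET, and all 6 hepatocyte markers were called lower in KC than in IC. Their summed level ran from 16.9 to 18.3 in IC and 17.1 to 18.05 in IT, from 13.6 to 15.1 in EC and ET and from 13.8 to 15.8 in KC and KT. Their part in the H2-Q10 difference was not tested. The first H2-Q10 probe, which resembles that of H2-Q2, did not separate Ito cells: it ran from 14.37 to 14.94 in IC and IT and from 14.39 to 15.25 in EC and ET. This first probe was well above background in all tumor samples (9.86 to 12.24).

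**Figure D4:**
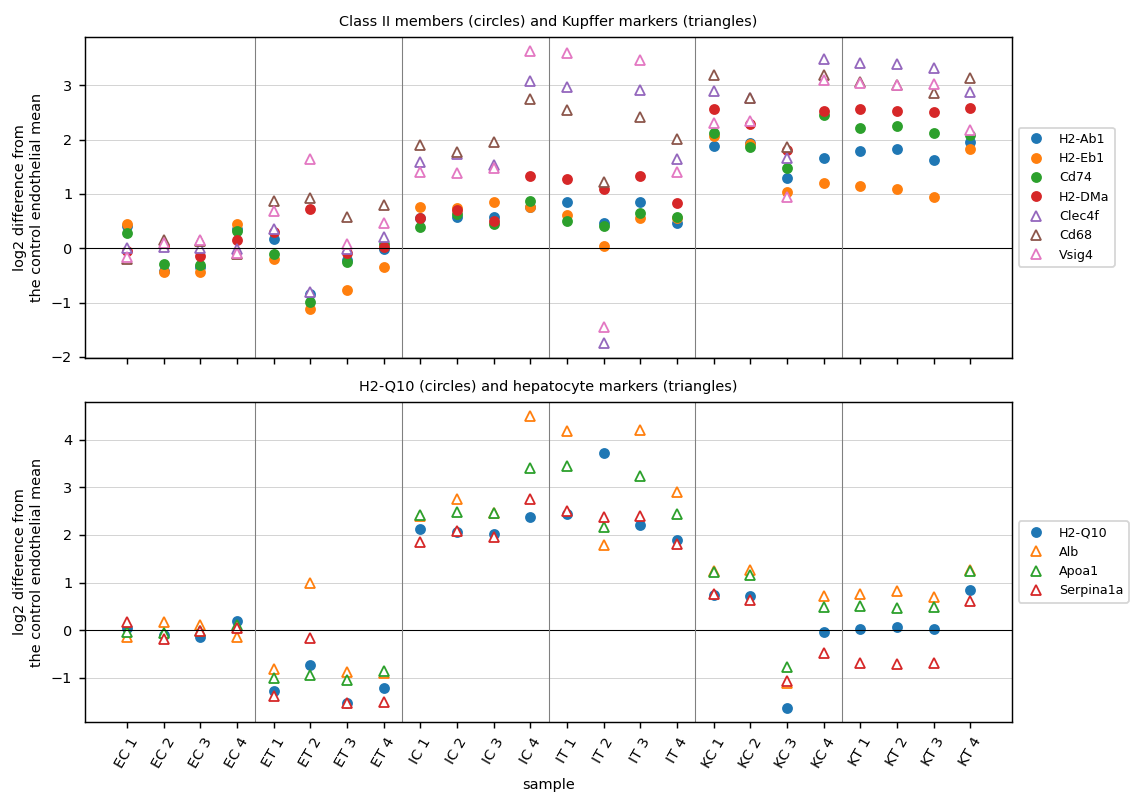
Log2 difference of each liver cell sample from the control endothelial mean of the same probe: above, 4 class II members (circles) and 3 Kupffer markers (triangles); below, H2-Q10 (circles) and 3 hepatocyte markers (triangles). IC 4 lies with IT 1 and IT 3 for the markers, IT 2 lies low for Clec4f and Vsig4, and H2-Q10 and the hepatocyte markers are both highest in the Ito samples.

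No member was called between TME and control cells in the fit of all samples. In limma the count was 0 of 67 probes for endothelial, Ito and Kupffer cells alike, where 1.14%, 0.289% and 0.436% of all probes were called. The methods' t-test after adjustment called 1, 1 and 0, and its share of all probes is not given here. At an unadjusted limma p under 0.05 there were 6, 5 and 2 member probes (8.96%, 7.46% and 2.99%), against 7.71%, 9.88% and 7.37% of all probes. The median difference over the members was -0.16 for endothelial, 0.10 for Ito and 0.11 for Kupffer cells and lay within 0.01 of 0 over all probes. Endothelial samples of the same array deviated together (r from 0.14 to 0.51), so the 8 endothelial samples were also fitted with the array as a fixed block. This called 1 of the 67 probes, that of H2-Q10 (-1.19, SE 0.16, adjusted p = 0.0424), where 3.34% of all probes were called, and gave 13 member probes an unadjusted p under 0.05 (19.4%, against 19.7% of all probes). On all 4 endothelial arrays 15 member probes were lower in the TME sample and 5 higher, where over all probes 13.4% were lower and 17.8% higher on all 4. Of the 5 higher, only that of H2-Eb2 was well above background in any endothelial sample. Among the 15 lower, the dimmer of the H2-DMb1 probes was not well above background in any of them. In endothelial cells H2-Eb1 was lower in the TME sample on all 4 arrays (-0.65, -0.68, -0.33 and -0.78), with a mean of -0.61 (95% interval -1.10 to -0.12, adjusted p = 0.382; 0.0586 with the fixed block). H2-Ea-ps (-0.99, -0.78, -0.33 and -0.79) and H2-DMb1 (-0.997, -0.67, -0.38 and -1.20) were lower on all 4 too and were not called in either fit. H2-Eb2 was higher on all 4 (2.05, 1.63, 0.68 and 1.92), with a mean of 1.57 (adjusted p = 0.771; 0.0629 with the fixed block), from EC samples of which 1 was well above background. H2-Q10 was lower on all 4 (-1.32, -0.64, -1.39 and -1.40), with a mean of -1.19 (adjusted p = 0.146); it was called when only EC and ET were fitted (adjusted p = 0.00877) and by the methods' t-test after adjustment (0.0248). Of the hepatocyte markers, Cyp2e1 and Ttr were called lower in ET, by -2.72 and -1.88, and their part was not tested. The dimmer Psmb9 probe had the lowest adjusted p among the members (-0.998, adjusted p = 0.0666) and was called with the array as a random block (0.0439) and after a filter on dim probes (0.0432).

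The result in Ito and Kupffer cells depended on array 4. H2-T9, a class I chain of the T region, differed by 1.22, 0.79, 1.23 and -1.10 on Ito arrays 1 to 4 and by 0.62, 0.81, 0.89 and -0.56 on Kupffer arrays 1 to 4. Psmb9 differed by 0.89, 1.10, 0.91 and -0.99 on the Ito arrays and by 0.26, 0.32, 0.40 and -0.35 on the Kupffer arrays. The signs were the same on arrays 1 to 3 and turned on array 4. Without number 4, 5 member probes were called higher in TME Ito cells, where 3.94% of all probes were called higher: H2-Oa (2.21, adjusted p = 0.00482), H2-T9 (1.08, adjusted p = 0.00358), Psmb9 (0.97, adjusted p = 0.0234), H2-T10 (0.87, adjusted p = 0.014) and H2-DMa (0.65, adjusted p = 0.0456). In Kupffer cells H2-T9 was called higher without number 4 (0.77, adjusted p = 0.0486), where 1.6% of all probes were. With number 4 the same differences were 1.33, 0.54, 0.48, 0.34 and 0.36 in Ito cells and 0.44 in Kupffer cells, and none was called. Markers of other cells moved with these arrays. Without number 4, 5 of 6 neutrophil and 3 of 6 T and NK cell markers were called higher in TME Ito cells, and 4 of 6 and 1 of 6 in TME Kupffer cells. The summed neutrophil level was 9.64, 9.56 and 9.39 in IC 1 to 3 and 13.80 in IC 4, and 13.69, 14.19 and 12.98 in IT 1 to 3 and 9.76 in IT 4, the same turn on array 4; their part in the member differences was not tested. Kupffer array 3 also stood apart, as it did for the markers: H2-K1, H2-D1 and B2m differed by 1.31, 1.18 and 2.07 there and by between -0.48 and 0.15 on the other Kupffer arrays, as KC 3 was low.

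**Figure D5:**
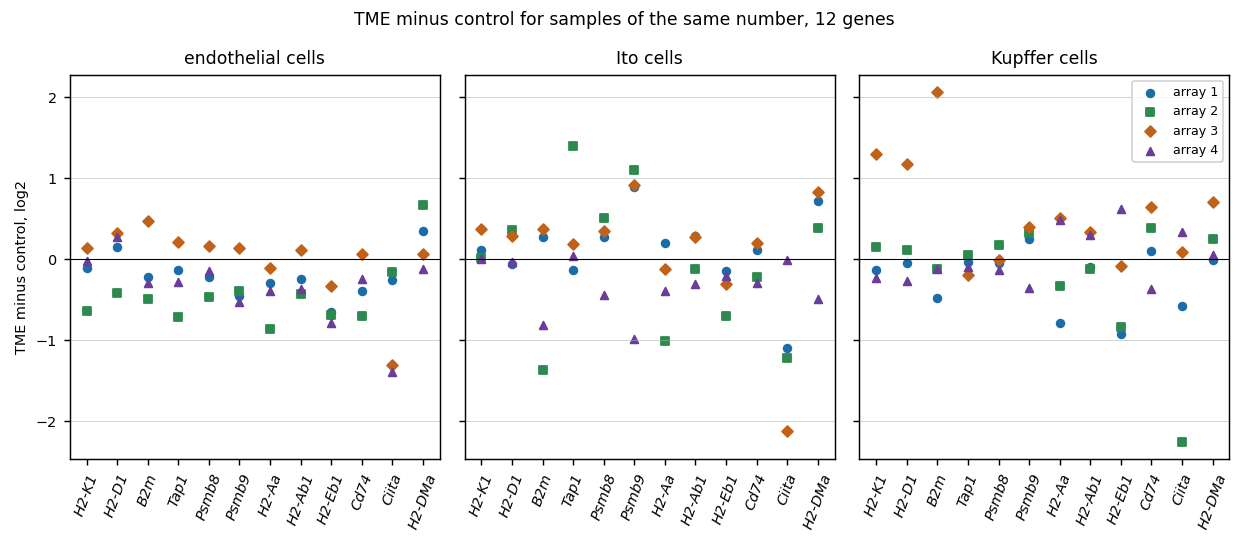
TME minus control on the log2 scale for the 2 samples of each array (same number), for 12 member genes in endothelial, Ito and Kupffer cells; each symbol is an array. Points fall on both sides of 0 for most genes, and array 4 (triangles) lies opposite to arrays 1 to 3 for Psmb9 in Ito and Kupffer cells.

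The TME change itself was compared between cell types, and 0 of 67 members were called. Over all probes 0.111% were called for Ito against endothelial cells, 0.0808% for Kupffer against endothelial cells and 0.00359% for Kupffer against Ito cells. At an unadjusted p under 0.05 there were 7, 3 and 2 member probes (10.4%, 4.48% and 2.99%), against 4.45%, 3.88% and 4.13% of all probes. Without number 4, H2-Oa was called in Ito against endothelial cells, with a difference of the changes of 3.11 (SE 0.63, adjusted p = 0.0202), where 0.564% of all probes were called higher. From the pathway list, Calr, a chaperone of class I assembly, and Jak1, a kinase of the interferon receptors, were called lower in ET than in EC (-0.88 and -0.95, adjusted p = 0.0489 and 0.000302), and none of the 38 was called in Ito or Kupffer cells.

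Between the tumors, no member was called in the fit of all samples. In TP against TM, limma called 0 of 67 probes where 3.01% of all probes were called, and the methods' t-test called 0; the lowest adjusted p was 0.0589, that of Tap2 (-0.94, SE 0.27). At an unadjusted p under 0.05 there were 28 member probes (41.8%, against 16.4% of all probes), 26 of them lower. On all 4 arrays 11 member probes were lower and 12 higher in TP, where over all probes 15.2% were lower and 14.1% higher. Of the 12 higher, only that of H2-M3 (0.72, 0.31, 0.08 and 0.20) was well above background in any tumor sample. Among the 11 lower, those of H2-DMb2 and the second H2-Q10 probe were not well above background in any tumor sample either. The samples numbered 1 ran the other way: H2-K1 differed by 0.49 on array 1 and by -0.88, -1.38 and -1.40 on arrays 2 to 4, and H2-D1 by 0.43, -1.02, -1.60 and -1.04. Without number 1, 17 member probes were called lower in TP, where 1.58% of all probes were; they included H2-K1 (-1.22, adjusted p = 0.0278), H2-D1 (-1.22, adjusted p = 0.026), H2-Q7 (-1.50, adjusted p = 0.0127), H2-Q8 (-1.49, adjusted p = 0.0121), Tap2 (-1.26, adjusted p = 0.0292) and Psmb9 (-1.31, adjusted p = 0.0238). Some of the 17 resemble each other, as the probe of H2-Q7 and 1 of H2-K2, which shared a run of 28 bases. The 17 probes thus need not stand for separate transcripts. Among the TM samples, TM 2 and TM 3 were highest for H2-K1 (14.85 and 14.53) and H2-D1 (15.86 and 15.66). They also stood apart for stellate and cycling cell markers, and the part of this in the calls without number 1 was not tested. Without number 3, H2-Ke2 was called lower in TP (-0.60, adjusted p = 0.0259). Without number 4, Cd1d1 was called higher in TP by 3.54, which rests on TM 2 and TM 3 below the detection limit (adjusted p = 0.0207; its other probe 1.53, adjusted p = 0.049) and H2-M10.2 lower (-2.29, adjusted p = 0.0404). With the array as a random block, 5 member probes were called, where 4.04% of all probes were, and 4 of the 5 were lower, namely H2-M10.2, H2-Q2, H2-Q7 and Tap2. The tumor arrays 1 and 4 correlated with the mean of the other arrays at r = -0.22 and -0.10, and dye and tumor site cannot be told apart.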

How the data were processed

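RNA of 32 samples, 4 in each of 8 groups, was labelled and hybridised pairwise to 16 Agilent arrays on 2 slides. Groups, dyes and slides were taken from the labels and file headers. The deposited value table holds linear intensities that the authors quantile normalised across samples; each column correlated best with its own sample's scanner intensity (32 of 32, r from 0.99986 to 0.99999). Here log2 of these intensities was fitted with limma 3.58.1 (R 4.3.3), 8 group means over all 32 samples, with Benjamini-Hochberg adjustment over 55681 probes and an adjusted p threshold of 0.05; no probe was filtered out. Tables were made with Python 3.11.15 (pandas 2.3.3). "At least" folds came from deposited scanner intensities after normexp (offset 50), loess and Aquantile normalisation. Each member gene is given by its probe of highest variance. Named were 12 genes in every sample, up to 10 members with the largest called differences in a comparison, those whose call changed without number 4, and up to 5 genes of the pathway list; others named for a count or a pattern were chosen after their values were seen. The members and lists were chosen with earlier results of these data known.

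The methods speak of biological replicates, while the labels do not tie samples to animals, so that p-values measure the spread between these samples. Same-numbered samples share an array. The correlation of their deviations was 0.14 to 0.51 in endothelial cells and of mixed sign elsewhere (-0.64 to 0.35), so numbers were taken as pairs in endothelial cells, where a fit with the array as a fixed block is given beside the main one, and not elsewhere. The number of arrays limits precision. Alternatives were other normalisations, a dim probe filter, fits of only the groups compared, the array as a random block, the methods' t-test, their limits of 0.001 and 4-fold, and leaving out each number in turn. The fits were tested on simulated data. Exon and UTR positions of probes were not looked up, and the authors' own comparisons were not used. One gene of the pathway list, one marker gene and one probe sequence are not reported here.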

Additional observations from a re-analysis of the deposited data

Results flagged for a closer look

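In 14 of 112 sets of 4 samples (14 genes in 8 groups), 1 sample lay far from the other samples of its group by Dixon's test of gap over range at the 95% level; chance gives about 1 in 20. Levels are log2.

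Sample 4 of the Kupffer and Ito groups gave 5 of these. It was low for H2-D1 in KT (17.32, others 17.46 to 17.48), and high for H2-Aa in KT (10.52, others 9.92 to 10.02), H2-Q10 in KT (8.85, others 8.03 to 8.06), Psmb9 in IC (15.26, others 14.14 to 14.29) and H2-Ab1 in IC (14.53, others 14.32 to 14.35). TME Ito sample 2 was high for Tap1 (14.22, others 12.77 to 12.89) and low for H2-Eb1 (14.09, others 14.60 to 14.67).

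Sample 3 was low for B2m in KC (15.44, others 17.29 to 17.65) and in EC (16.99, others 17.74 to 17.78) and for H2-D1 in IC (17.13, others 17.38 to 17.41). Psmb9 was low in ET sample 2 (14.61, others 15.09 to 15.16) and H2-Ke6 high in EC sample 4 (10.04, others 9.87 to 9.89). In TM, Ciita was high in sample 2 (7.17, others 4.28 to 4.67), and H2-Q10 in sample 3 (2.29, others 2.04 to 2.08), where it was not well above background. The causes were not tested.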

How the results depend on the processing

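Counts of member probes called under other settings moved by over 1.5 times as follows, and the causes were not tested. In TME against control endothelial cells 1 was called after the dim filter, in the fit of only the groups compared, with the array as a random replicate block, with it as a fixed block over the 8 endothelial samples (chosen after seeing the data) and by the methods' t-test, where the fit of all samples called 0. In Ito cells the t-test called 1, and in TP against TM the replicate block called 5. For IC against EC, only the groups compared gave 17, the t-test 14 and the limits of 0.001 and 4-fold 1, against 9. These limits gave 2 for KC against EC, and 1 each for KC against IC and IT against ET. For KC against IC, normexp gave 17 and only the groups compared 15, against 9. For IT against ET, scaling to the 75th percentile gave 11, and only the groups compared and the t-test 2 each, against 6. With this scaling the median difference of all probes was 0.36 in IC against EC, 0.35 in IT against ET, 0.23 in KC against EC, -0.20 in KC against IC, 0.50 in TM against KC and 0.62 in TP against KT, and in the tumor comparisons all 49 members called in each kept their sign and call. With normexp, 47 of the 49 kept both in each comparison and 1 turned its sign. The random block changed no other count by over 1.5 times. Shares of all probes under these settings are given only for the fixed block in endothelial cells and the random block in TP against TM. Elsewhere a move of the members cannot be told from one of the whole array.

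Leaving out each number in turn gave 0 to 0 calls for ET against EC, 0 to 5 for IT against IC, 0 to 1 for KT against KC, 0 to 17 for TP against TM, 2 to 8 for IC against EC, 6 to 11 for KC against EC, 4 to 10 for KC against IC, 2 to 9 for IT against ET, 46 to 51 for TM against KC and 47 to 49 for TP against KT. For the TME change it gave 0 to 1 for Ito against endothelial cells and 0 to 0 for the other two. The lowest counts came without number 1 (2 for IC against EC, 4 for KC against IC), number 2 (6 for KC against EC) and number 3 (2 for IT against ET), and the highest for IT against ET without number 2 (9). Shares of all probes are given above without number 4 for IT against IC, KT against KC and the TME change of Ito against endothelial cells. They are also given without number 1 for TP against TM. In the other fits a move of the member counts cannot be told from one of the whole array.

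The sign turned in 4 of 460 single gene values, 413 of which kept direction and call; 1 gained the call (B2m in TM against KC without number 3) and 42 lost it, 19 of them in IC against EC and 13 in IT against ET. B2m in TM against KC was 0.28 with the 75th percentile and -1.22 to 0.19 leaving out numbers, positive without number 1. Ciita ran from -0.28 to 0.54 in TM against KC and from -0.30 to 1.24 in TP against KT, negative without number 2.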
